A study of Sus scrofa with 6 samples.

Results

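Cell junction genes are described here across 6 pig kidneys: claudins and other tight junction proteins, cadherins, catenins, desmosomal proteins and connexins. Members were taken by gene name, as array probes whose name begins with a claudin, numbered cadherin (other than CDH5), connexin, catenin, TJP, desmocollin, desmoglein or plakophilin prefix, or is OCLN, F11R, DSP or JUP. This found 52 probes of 33 gene names among 43603 probes on the array. A signal well above background on at least 3 of 6 arrays was required, which left 42 probes of 27 genes among 25017 probes of all kinds and 4114 genes with a symbol.

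Renal cortex of Large White pigs aged 3 months was profiled, with total RNA labelled with Cy3 and 1 Agilent array per kidney. In the ischemia group (n = 3), the clamped kidney was taken out and held under clamp for 60 min at 37 °C, rinsed through with University of Wisconsin preservation solution at 4 °C, and held at that temperature for 24 h until it was sampled. Control kidneys (n = 3) were removed, sampled and frozen without delay. All 6 kidneys came from different pigs per the labels, none was reperfused, and clamping, flush and storage cannot be told apart in this design.

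Epithelial cells of the nephron are joined at their apical side by tight junctions, whose claudins decide which ions and how much water pass between cells. Each nephron segment carries its own claudins: CLDN2 makes the proximal tubule leaky, CLDN16 and CLDN19 form the calcium and magnesium pathway of the thick ascending limb, and other claudins seal the collecting duct. Below them, cadherins hold neighbouring cells together and are tied to the actin cytoskeleton through catenins, desmosomes are anchored to keratin filaments, and connexins form channels between cells. Disruption of tight and adherens junctions of tubular cells is a known feature of ischemic kidney injury.

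The probes of CLDN1, CLDN12 and CDH13 gave the lowest p-values among the members, and their sequences are shown because the readings rest on them. All are written 5′ to 3′ as the scanner files give them, and each probe is 60 bases long. The sequences of A_72_P198317 and A_72_P441099 are the first 30 bases only.

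CLDN12 A_72_P440991: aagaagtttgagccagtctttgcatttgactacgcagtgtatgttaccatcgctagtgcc
CLDN12 A_72_P198317: atcgaaattgacattccagtagtttcacac
CLDN1 A_72_P441099: cacattgctaaaaatgatgaggtcttattt
CDH13 A_72_P760916: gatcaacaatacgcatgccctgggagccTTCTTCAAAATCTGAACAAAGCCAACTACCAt
CDH13 A_72_P035881: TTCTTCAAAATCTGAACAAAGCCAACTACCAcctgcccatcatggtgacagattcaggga

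Capitals mark the run of 31 bases that both CDH13 probes contain, so these probes read overlapping stretches of 1 transcript and are not separate measurements. The CLDN12 probes share no run longer than 5 bases. They read separate stretches of the transcript in the same RNA, so they are not replicates of the kidneys either.

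The share of spots well above background differed more between slides than between groups. Between 52.6% and 61.4% of spots per array were well above background, no spot was saturated, and 5 to 12 spots per array were marked as outliers. The 75th percentile of processed signal, used for scaling, was 418 on ischemia 1 and 246 to 293 on the other arrays. The cortical markers that had a probe with a symbol, 8 of 12 for the proximal tubule and 3 of 9 for the thick ascending limb, were all kept. Each of 3 slides held 1 ischemia and 1 control kidney: slide 1 held ischemia 2 and control 1, slide 2 held ischemia 3 and control 2, and slide 3 held ischemia 1 and control 3. Ischemia arrays lay at position 3 and control arrays at position 4 of every slide, so the effect of position cannot be told apart from that of ischemia. Values below are log2 signals relative to the 75th percentile of the same array, so that 0 is that percentile. With 3 arrays per group, precision is limited by their number.

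Junction genes as a whole showed no difference past the threshold. Of 42 probes, 0 had a limma adjusted p under 0.05, and 0.004% of all probes tested (1 probe) had one. At an unadjusted limma p under 0.05, 1 junction probe was higher after ischemia (CLDN1), against 2.99% of all probes, and 3 were lower (both CLDN12 probes and 1 of CDH13), against 3.31% of all probes. In either direction that makes 4 junction probes, against 6.3% of all probes. With slide as a block, 5 junction probes were lower, the other CDH13 probe and 1 of CLDN3 being added, against 5.62% of all probes in that fit. All 3 ischemia values lay above all 3 control values in 1 junction probe, against 5.9% of all probes, and below them in 4, against 5.02% of all probes. The 4 were the CLDN12 pair, 1 CDH13 probe and 1 CLDN8 probe.

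More junction probes had a negative than a positive difference (ischemia minus control). There were 13 positive and 29 negative values, against 44.2% positive and 55.8% negative among all probes, and the median was -0.14 against -0.04 for all probes. Claudins (22 probes of 17 genes) had 4 positive and 18 negative values with a median of -0.21. The other tight junction probes, 5 of only 2 genes (OCLN and F11R), had 1 positive and 4 negative values with a median of -0.26. The 5 cadherin probes had a median of -0.09, with 1 of them positive. Catenins, 8 probes of 2 genes, had 6 positive and 2 negative values and a median of 0.03. Probes of the same gene are not separate measurements of a class. By gene, on the brightest probe, 9 of 27 differences were positive, with a median of -0.10. The balance among probes depended on the scaling. With each array centred on its median, all probes had a median of 0.11, the junction probes 0.01, and 8 of 22 claudin probes were positive. The authors' deposited values covered 31 of the 42 junction probes and 19245 of the 25017 probes, so the probe set differs as well. In them, all probes had a median of 0.14, the junction probes 0.06, and 16 of 21 claudin probes were positive. The junction median lay below that of all probes by 0.10 with the main scaling and with median centring, and by 0.07 in the smaller probe set of the deposited values.

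**Figure D1:**
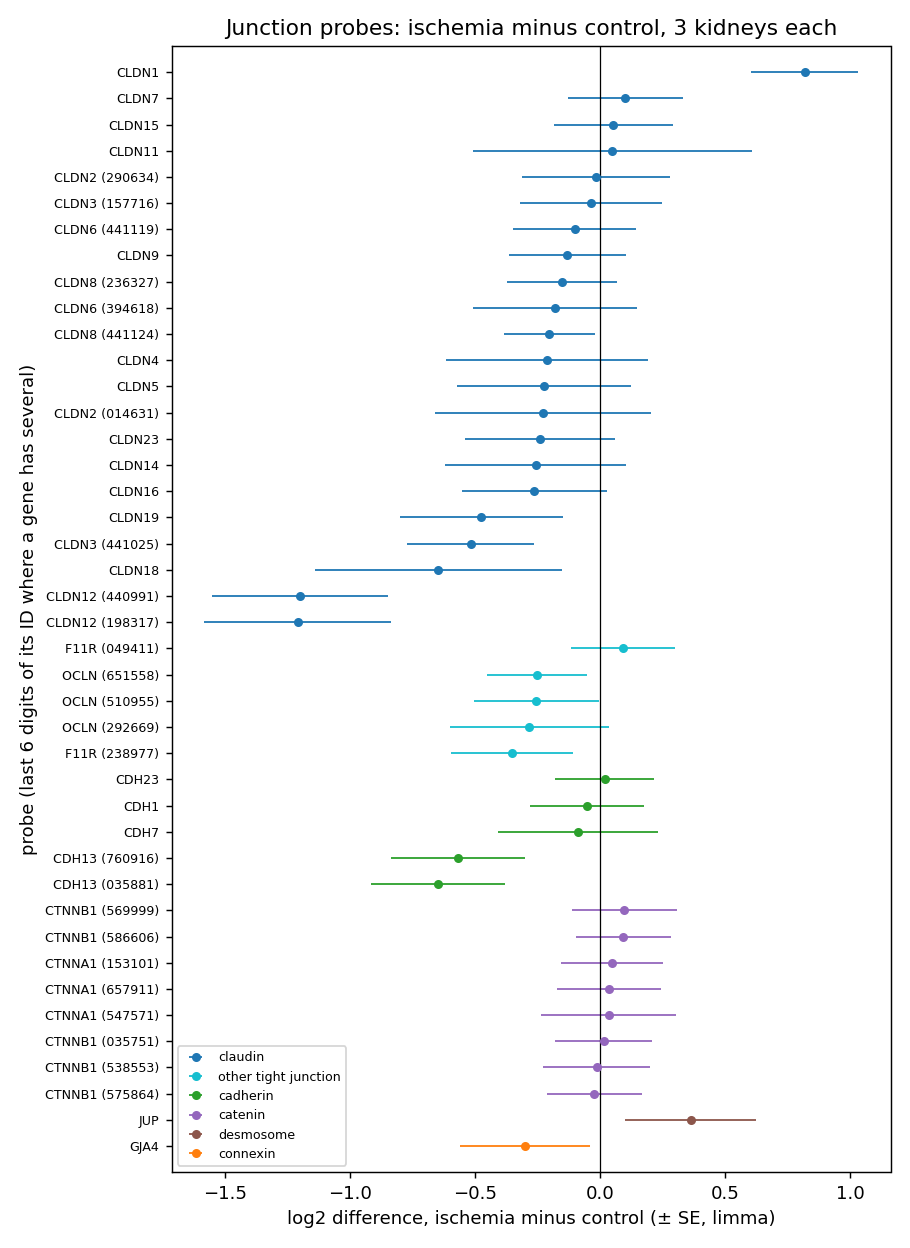
Log2 difference, ischemia minus control, with its limma standard error for each of the 42 junction probes (3 kidneys per group), grouped by junction type and ordered by size within a type. CLDN1 lies farthest to the right, the CLDN12 pair farthest to the left, and the catenin probes lie between -0.02 and 0.10.

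CLDN1 had the largest positive difference among the junction probes. It encodes a claudin that tightens the paracellular barrier, and in the kidney it is known from the parietal cells of Bowman's capsule. Its probe read 1.13, 1.58 and 1.44 in ischemia kidneys 1 to 3, against 0.69, 0.65 and 0.37 in control kidneys 1 to 3. All ischemia values were above all control values, the nearest being ischemia 1 and control 1. The difference was 0.82 ± 0.21 (SE), 1.76-fold higher after ischemia, with an unadjusted limma p of 0.0060 and an adjusted p of 0.593, so the call did not pass. Within slides 1, 2 and 3 it was 0.89, 0.80 and 0.76. The podocyte marker WT1 had a difference of 0.69 ± 0.36, and PODXL 0.08 ± 0.24. The part of glomerular RNA in the CLDN1 value was not tested, and in whole cortex a change in the number of cells of a type and a change in RNA per cell cannot be told apart.

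CLDN12 had the largest negative difference. It encodes a claudin that lacks the usual scaffold-binding tail and has been tied to calcium passage in mouse proximal tubule. The brighter probe read -0.37, 0.04 and 1.07 in ischemia kidneys 1 to 3, against 1.24, 1.67 and 1.45 in control kidneys. The dimmer probe read -1.47, -1.07 and -0.15 in ischemia kidneys, against 0.13, 0.58 and 0.20 in control kidneys. On both probes every ischemia value was below every control value, and ischemia 3 lay nearest to the controls. The differences were -1.21 ± 0.37 and -1.20 ± 0.35 (SE), 2.31-fold and 2.30-fold lower after ischemia. The unadjusted limma p was 0.0137 and 0.0109, and the adjusted p was 0.659 for both. Within slides 1, 2 and 3 the brighter probe differed by -1.20, -0.60 and -1.83 and the dimmer one by -1.20, -0.73 and -1.68. A further CLDN12 probe, known from its description only, was too dim to be kept.

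**Figure D2:**
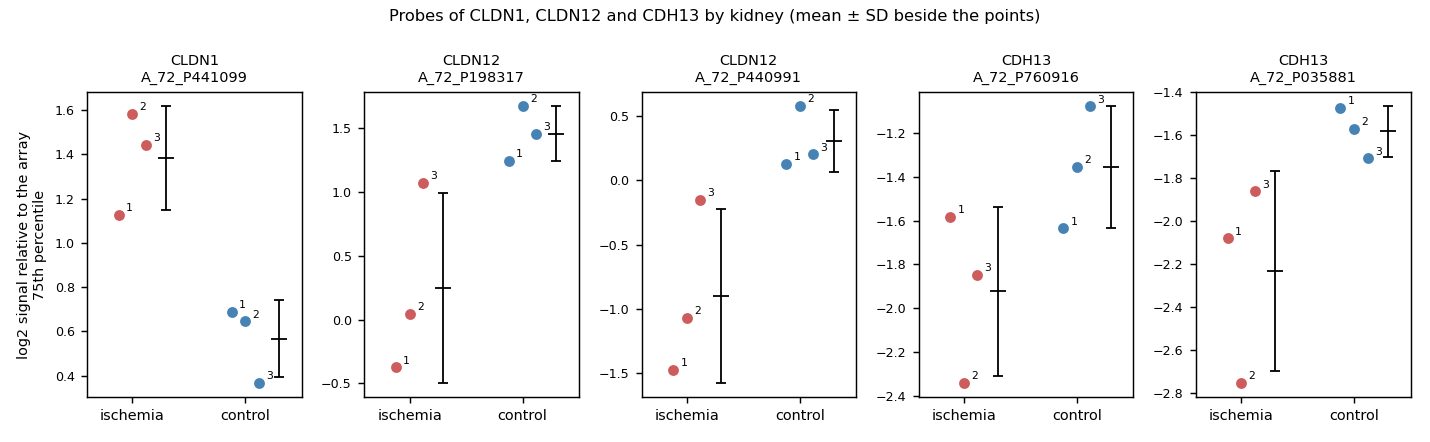
Log2 signal relative to the array's 75th percentile for the probes of CLDN1, CLDN12 and CDH13, 1 panel per probe with its own axis, ischemia kidneys left and control kidneys right, numbered by replicate, with group mean and SD beside the points. The groups are apart in the CLDN1 panel, in both CLDN12 panels and in the panel of CDH13 probe A_72_P035881, and they overlap on the other CDH13 probe, where ischemia 1 at -1.58 lies above control 1 at -1.64.

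CLDN16 and CLDN19, claudins of the thick ascending limb, were measured well above background on all 6 arrays. CLDN16, the magnesium and calcium pore protein whose loss causes renal magnesium wasting, read 1.83, 1.77 and 0.95 in ischemia kidneys, against 1.96, 1.87 and 1.52 in control kidneys. The groups overlapped, and the lowest value was that of ischemia 3. The difference was -0.26 ± 0.29 (SE, limma adjusted p = 0.941). CLDN19, which pairs with CLDN16 in this pore, read 2.02, 2.34 and 1.92 in ischemia kidneys, against 3.08, 2.71 and 1.90 in control kidneys. Control 1 and control 2 lay above all ischemia kidneys, and control 3 lay below them all. The difference was -0.48 ± 0.33 (limma adjusted p = 0.906), and its size rested on the control kidneys. It was -0.22 without control 1 (limma adjusted p = 0.854) and -0.81 without control 3 (limma adjusted p = 0.612).

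CLDN14, which blocks the CLDN16 and CLDN19 pore when calcium is high, was dim. It read -3.22, -3.43 and -3.22 in ischemia kidneys, against -2.24, -3.15 and -3.70 in control kidneys, a difference of -0.26 ± 0.36. The control kidneys spread wider than the ischemia kidneys and enclosed them. SLC12A1, the sodium, potassium and chloride transporter of the same segment, differed by 0.08 ± 0.20. Its probe was matched through its annotation, since its name on the array is not that of the gene. Of 9 listed markers of the thick ascending limb, 3 had a probe with a symbol that was kept (CLDN16, CLDN19 and SLC12A1). Their summed level, as log2 of the summed signals, was 3.57 to 3.96 in ischemia kidneys and 3.63 to 4.26 in control kidneys.

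CLDN2, the cation and water pore of the proximal tubule, gave a bright signal with close group means. Its brighter probe read 5.87, 6.35 and 5.98 in ischemia kidneys, against 6.59, 6.08 and 5.59 in control kidneys. The control kidneys again enclosed the ischemia kidneys, control 1 being highest and control 3 lowest. The difference was -0.02 ± 0.30 (SE, limma adjusted p = 0.995), and on the dimmer probe it was -0.23 ± 0.43. Of the 8 proximal tubule markers kept, 4 were lower at an unadjusted limma p under 0.05, against 3.31% of all probes, 0 were higher, against 2.99%, and the median difference was -0.61. SLC22A6, an organic anion transporter, differed by -1.03 ± 0.36, ANPEP by -0.73 ± 0.28, and MIOX, an enzyme of inositol breakdown, by -0.81 ± 0.33. The limma adjusted p of the 4, SLC34A1 being the last, lay between 0.729 and 0.785. In ANPEP, MIOX and SLC34A1 the groups overlapped through control 3, at 5.83, 5.71 and 6.19, and in SLC22A6 they were apart. Of the 8 markers 2 had a positive difference, SLC4A4 with 0.07 ± 0.18 and SLC5A1 with 0.08 ± 0.28. The summed level of the 8 markers was 7.79 to 7.83 in ischemia kidneys and 8.05 to 8.88 in control kidneys. Their part in the readings of CLDN12 and CLDN2 was not tested.

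The claudins of the distal nephron and collecting duct, CLDN3, CLDN4, CLDN7 and CLDN8, overlapped between groups on their brightest probes. CLDN4, which with CLDN8 forms a chloride pathway of the collecting duct, read -0.81, 0.43 and -0.37 in ischemia kidneys, against 0.56, -0.07 and -0.60 in control kidneys, a difference of -0.21 ± 0.40 (SE). CLDN7, a claudin of distal segments, read 2.34, 2.50 and 1.95 in ischemia kidneys, against 2.40, 2.01 and 2.07 in control kidneys, a difference of 0.10 ± 0.23. In both genes the spread within each group exceeded the difference between them. CLDN8 differed by -0.15 ± 0.22 on its brighter probe. Its dimmer probe read -0.17, -0.24 and -0.03 in ischemia kidneys, against 0.16, 0.04 and -0.03 in control kidneys, with the groups apart by less than the printed decimals and a difference of -0.20 ± 0.18.

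CLDN3, a barrier-forming claudin, gave unlike readings on its probes. The brighter probe read 2.21, 3.02 and 2.44 in ischemia kidneys, against 2.94, 2.53 and 2.30 in control kidneys, a difference of -0.04 ± 0.29 (SE). The dimmer probe read -0.13, 0.37 and -0.13 in ischemia kidneys, against 0.81, 0.69 and 0.18 in control kidneys, a difference of -0.52 ± 0.26 with an unadjusted limma p of 0.0805 (0.0490 with slide as a block). The gap of 0.48 between these probes was the widest of the 10 genes with several kept probes. The array annotation assigns the brighter CLDN3 probe and the CLDN4 probe to the same transcript cluster, so which of these genes it measured cannot be told apart. Among collecting duct markers, 4 of 9 were kept with a median difference of -0.35. None of them had an unadjusted limma p under 0.05, against 6.3% of all probes. AQP2, the vasopressin-regulated water channel, differed by -0.41 ± 0.23.

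**Figure D3:**
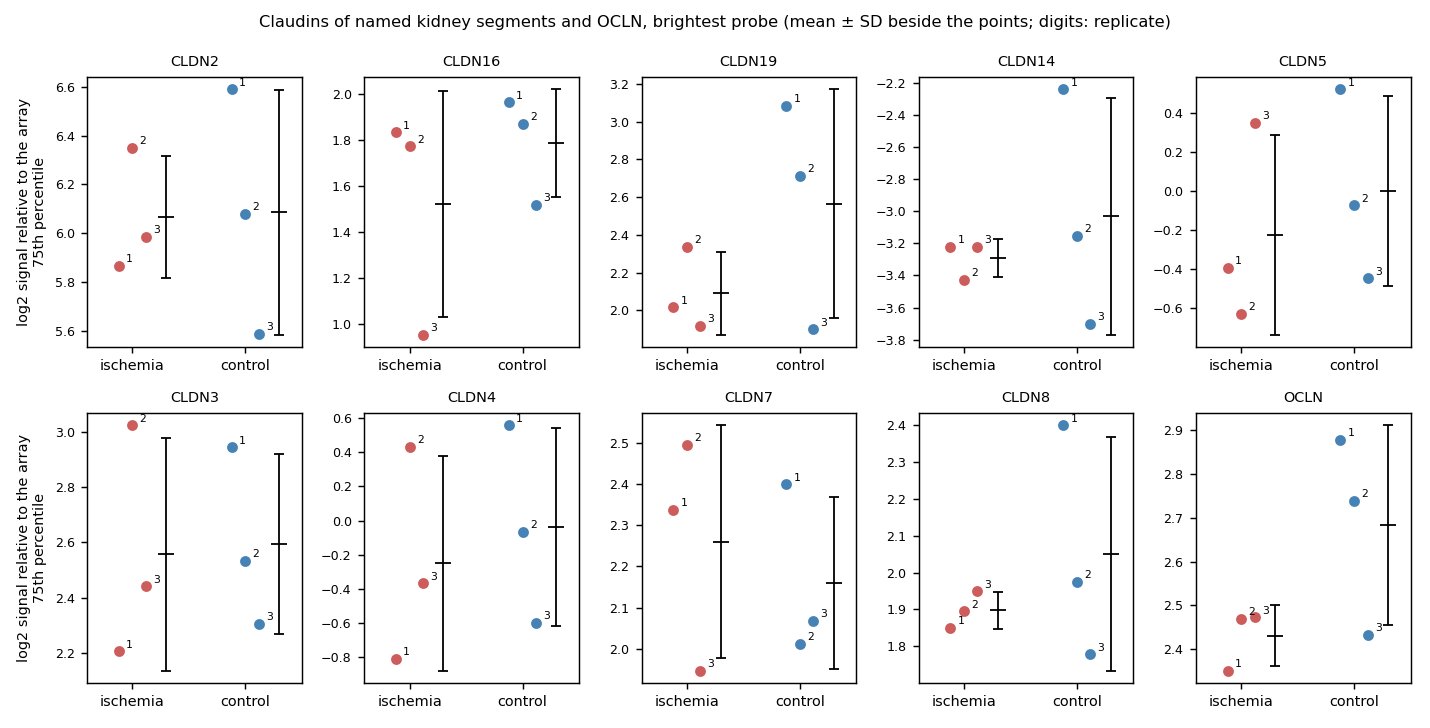
Log2 signal relative to the array's 75th percentile for 9 claudins and OCLN, brightest probe, 1 panel per gene with its own axis, ischemia kidneys left and control kidneys right, numbered by replicate, with group mean and SD beside the points. The groups overlap in every panel; control 1 is the highest of the control kidneys in each of them.

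The remaining claudins had small differences against their errors. CLDN5, the claudin of endothelial tight junctions, read -0.39, -0.63 and 0.35 in ischemia kidneys, against 0.52, -0.07 and -0.45 in control kidneys, a difference of -0.22 ± 0.35 (SE). The groups overlapped. Of 7 listed endothelial markers 5 were kept, their median difference was 0.11, and their summed level was 4.50 to 5.11 in ischemia kidneys and 4.70 to 4.78 in control kidneys. CLDN6 and CLDN9, known from the developing kidney of mice, differed by -0.10 ± 0.25 and -0.13 ± 0.23 on their brighter or only kept probe. CLDN15, a cation pore of the intestine, differed by 0.05 ± 0.24 and CLDN23 by -0.24 ± 0.30. CLDN10, outside the name rule and named through its gene number, was bright. It read 4.54, 4.74 and 3.80 in ischemia kidneys, against 4.80, 4.56 and 3.95 in control kidneys, a difference of -0.08 ± 0.33.

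CLDN11 and CLDN18, known from myelin and from stomach and lung, were near the limit of detection. CLDN11 was well above background on 2 ischemia and 1 control array, with a difference of 0.05 ± 0.56, and CLDN18 on 2 ischemia and 3 control arrays, with -0.65 ± 0.49. The CLDN18 value rested on ischemia 2, which read -5.28, against -3.41 and -3.50 in the other ischemia kidneys and -3.14 to -3.58 in the control kidneys. Among claudin probes left out, CLDN17, CLDN20 and CLDN22 were well above background on 0 arrays, as were the second probes of CLDN9, CLDN11 and CLDN18.

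OCLN, the occludin gene of the tight junction strand, had 3 probes with differences of -0.25 ± 0.20, -0.26 ± 0.25 and -0.28 ± 0.32 (SE). The brightest read 2.35, 2.47 and 2.47 in ischemia kidneys, against 2.88, 2.74 and 2.43 in control kidneys (limma adjusted p = 0.921). Control 1 and control 2 lay above the ischemia kidneys and control 3 lay among them. F11R, the junctional adhesion molecule A, read 2.22, 1.83 and 2.05 in ischemia kidneys, against 2.15, 1.81 and 1.88 in control kidneys on its brighter probe, with overlapping groups. Its probes differed in sign, at 0.09 ± 0.21 and -0.35 ± 0.24. No TJP probe carried that name. Probes matched to TJP1, the ZO-1 scaffold gene, by description after the values were known ranged from -0.54 to 0.29.

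Of the 4 cadherin genes kept under the name rule, CDH1 had close group means and CDH13 had the largest difference. CDH1 encodes E-cadherin, the main cadherin of distal tubular epithelium. It read 1.83, 1.61 and 1.40 in ischemia kidneys, against 1.97, 1.59 and 1.43 in control kidneys, with overlapping groups and a difference of -0.05 ± 0.23 (SE, limma adjusted p = 0.979). A second CDH1 probe was well above background on 2 arrays and was left out.

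CDH13 encodes T-cadherin, a cadherin held to the membrane by a lipid anchor, known from vascular cells as a receptor of adiponectin. Its brighter probe read -1.58, -2.34 and -1.85 in ischemia kidneys, against -1.64, -1.35 and -1.08 in control kidneys. The overlapping probe read -2.08, -2.75 and -1.86 in ischemia kidneys, against -1.47, -1.57 and -1.71 in control kidneys. Ischemia 2 was the lowest on both, and the groups were apart on the overlapping probe alone. The differences were -0.57 ± 0.27 and -0.65 ± 0.27 (SE), with unadjusted limma p-values of 0.0697 and 0.0451 and adjusted p-values of 0.850 and 0.778. The overlapping probe kept an unadjusted limma p under 0.05 in 8 of 18 alternatives. Within slides 1, 2 and 3 the brighter probe differed by -0.71, -0.49 and -0.51. CDH5, the endothelial cadherin that the name rule leaves out, differed by 0.20 ± 0.27, PECAM1 by 0.09 ± 0.21 and the angiopoietin receptor TEK by 0.78 ± 0.29. The other kept endothelial markers, KDR and VWF, differed by 0.11 ± 0.24 and -0.03 ± 0.28.

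CDH23, known from the tip links of inner ear hair cells, read 2.15, 2.03 and 1.87 in ischemia kidneys, against 2.16, 2.02 and 1.80 in control kidneys, a difference of 0.02 ± 0.20 (SE). The values of its groups were almost the same. CDH7, a classical cadherin of the nervous system, differed by -0.09 ± 0.32. CDH19 and CDH22 were well above background on 0 arrays. A probe described as similar to bovine cadherin-18, found by that description after the values were known, read -3.29, -3.63 and -3.05 in ischemia kidneys, against -2.15, -2.39 and -2.02 in control kidneys. Its groups were apart, with a CDH18 difference of -1.14 ± 0.23 (limma adjusted p = 0.426). Other cadherins named the same way were CDH6, a cadherin of the proximal tubule, at -0.19, CDH11 at 0.33 and CDH3 at 0.16.

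The catenins that tie cadherins to the cytoskeleton were bright and lay close between groups. CTNNB1, which encodes β-catenin, read 5.70, 5.97 and 6.11 in ischemia kidneys, against 5.92, 5.96 and 5.86 in control kidneys on its brightest probe, a difference of 0.01 ± 0.19 (SE, limma adjusted p = 0.995). Its 5 probes, which share no run longer than 7 bases, ranged from -0.02 to 0.10. CTNNA1, the αE-catenin gene, read 5.76, 6.20 and 5.87 in ischemia kidneys, against 6.37, 5.81 and 5.55 in control kidneys on its brightest probe, with control 1 highest and control 3 lowest. Its 3 overlapping probes ranged from 0.03 to 0.05. Of 22 listed adherens junction partners, 8 were kept, with a median difference of 0.11. None of them passed an unadjusted limma p under 0.05, against 6.3% of all probes. VCL, the vinculin gene, read 4.24, 4.19 and 4.41 in ischemia kidneys, against 3.98, 3.93 and 4.03 in control kidneys, a difference of 0.30 ± 0.18 with the groups apart. ARVCF, a catenin of the p120 family, differed by -0.38 ± 0.23.

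Of desmosomal members only JUP was kept. It encodes plakoglobin, a catenin of desmosomes and adherens junctions, and read 0.03, 0.03 and 0.39 in ischemia kidneys, against 0.16, -0.15 and -0.65 in control kidneys. The groups overlapped through control 1, and the difference was 0.36 ± 0.26 (SE, limma adjusted p = 0.908). DSG1, a desmoglein of the skin, was well above background on 2 arrays and was left out, and no name began with DSC or PKP. Probes placed in DSP, the desmoplakin gene, through their annotation differed by 0.29 ± 0.21 and 0.38 ± 0.23, the second one dim. Of 10 listed desmosome partners 2 were kept, 1 of them higher at an unadjusted limma p under 0.05, against 2.99% of all probes. PNN, known from desmosomes and from RNA splicing, differed by 0.65 ± 0.25 with an unadjusted limma p of 0.0322, and KRT8, a keratin of simple epithelia, by 0.10 ± 0.30.

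GJA4 was the only member among the alpha, beta and gamma connexins that the name rule covers. It encodes connexin 37, a gap junction protein of arterial endothelium, and read -0.80, -1.65 and -1.34 in ischemia kidneys, against -0.85, -0.92 and -1.11 in control kidneys. The highest value was that of ischemia 1, so the groups overlapped, and the difference was -0.30 ± 0.26 (SE, limma adjusted p = 0.930). GJA5, another arterial connexin named through its gene number, was dim and differed by -0.18 ± 0.23. GJD3, a delta connexin outside that rule and the only kept gene of 7 in the list of other gap junction genes, differed by -0.02 ± 0.18.

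Few other genes of the junction pathways had a probe with a symbol that was kept. Of 27 listed tight junction partners 4 were kept, with a median of -0.08. None of them passed an unadjusted limma p under 0.05, against 6.3% of all probes. PARD6B, a polarity protein, differed by -0.40 ± 0.28 (SE). Of 27 junction regulators 16 were kept, with 0 higher, against 2.99% of all probes, 1 lower, against 3.31%, and a median of 0.04. The one lower was MYL9, a myosin light chain of contractile cells, which read 6.22, 6.48 and 6.14 in ischemia kidneys, against 7.26, 6.87 and 6.56 in control kidneys, a difference of -0.62 ± 0.24. MMP14 and MMP2, matrix proteases that can cleave junction proteins, differed by 0.58 ± 0.26 and 0.55 ± 0.29.

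The control kidneys differed among themselves in the junction genes, and control 1 stood apart. It was the highest of the 6 arrays in 23 of 42 junction probes (54.8%), against 21.0% of all probes, and in 12 of 22 claudin probes. This was not particular to junction genes. Control 1 was also the highest in every kept proximal tubule marker but SLC4A4, and in every kept collecting duct marker but SCNN1A. Control 3 was the lowest in 15 of 42 junction probes, against 25.2% of all probes. Ischemia 1 was the lowest in 12 of 42, against 16.6% of all probes. The median level of the 42 probes was 0.22, 0.55 and 0.72 in ischemia kidneys 1 to 3, against 1.03, 0.83 and 0.29 in control kidneys 1 to 3. The medians of all probes lay between -0.61 and -0.49 on every array. Leaving out control 1 moved the median difference of the junction probes to 0.01, with 22 of 42 positive, and that of all probes to -0.02.

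**Figure D4:**
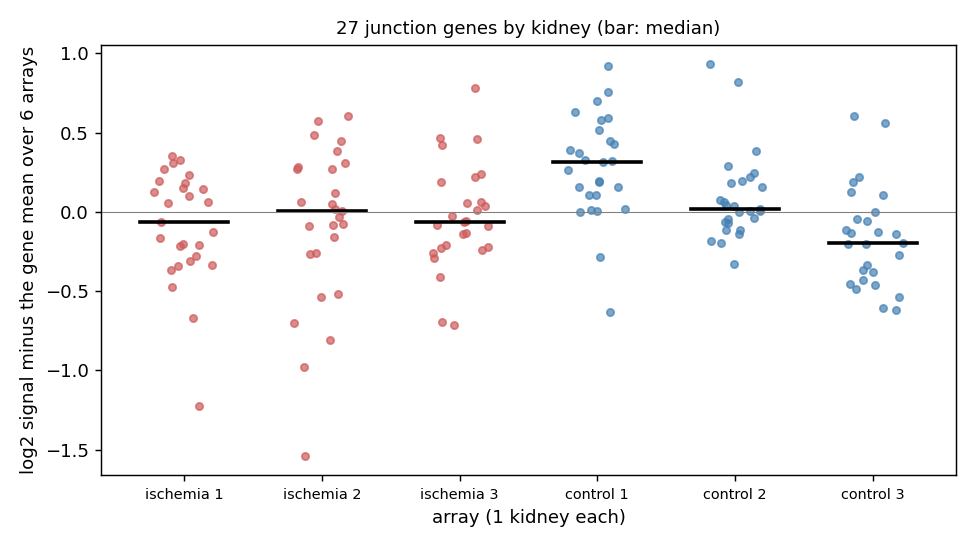
Log2 signal of each of 27 junction genes (brightest probe) minus that gene's mean over the 6 arrays, by kidney, with ischemia kidneys left and a bar at the median. The medians are -0.06, 0.01 and -0.06 in ischemia kidneys and 0.31, 0.02 and -0.20 in control kidneys, so control 1 and control 3 lie on either side of the ischemia kidneys.

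The balance of lower and higher probes varied between slides. On slide 1, which paired ischemia 2 with control 1, 34 of 42 junction probes (81.0%) were lower in the ischemia kidney, against 50.8% of all probes, and the median was -0.29. On slide 2 it was 27 of 42 (64.3%), against 59.3% of all probes, with a median of -0.09. On slide 3, which paired ischemia 1 with control 3, it was 18 of 42 (42.9%), against 49.5% of all probes, with a median of 0.11. The lower values of CLDN12 and the higher value of CLDN1 were found on all 3 slides. Where all ischemia values lie beyond all control values, the direction on every slide follows from that and is no separate evidence.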

How the data were processed

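The scanner files deposited by the authors hold spot intensity. Per the file headers, Agilent Feature Extraction 10.10.1.1 subtracted the background and removed spatial trends within each array, and arrays were not scaled to each other. The submitters' processing notes name version 11.5.1.1 of that program, as well as limma and R 2.15.2. A log2 value table, also deposited by the authors, served as an alternative only, since no source used here states its normalization.

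For each array the 75th percentile of log2 processed signal was subtracted, control and outlier spots were left out, and spots of a probe were averaged. A probe was kept if well above background on at least 3 of 6 arrays and measured on at least 5. No junction probe lacked a value. limma 3.58.1 (R 4.3.3) compared ischemia with control, two-sided, with p-values adjusted by Benjamini-Hochberg over 25017 probes and a threshold of 0.05. An exact permutation test of 3 against 3 cannot go below 0.1, so none is given.

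Members and lists were chosen with earlier results of these data known. Every kept member is named. Values per array are given for CLDN16, CLDN19, up to 5 genes of lowest p in each junction type and the brightest there, and further members were added after their values were seen. From lists, members of lowest p are named, and further ones were added after their values were seen. A gene is its brightest probe. Names of members came from the array design. Symbols of other genes came from that design or were matched through older symbols, synonyms, sequence identifiers or gene numbers of RefSeq genes. After this, 31566 probes had no symbol. No coordinates are given because no genome was at hand. Alternatives covered the scaling, the background correction, the filter, outlier spots, the deposited table, blocks for slide and for sample number, a variance trend, array weights, the mean of a gene's probes and leaving out each array.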

Additional observations from a re-analysis of the deposited data

How the results depend on the processing

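Counts at the adjusted threshold were the least stable values. For all probes the count was 1. It became 11 with median centring, 3 with normexp, 3 in the deposited values, 3 when all 6 arrays had to be well above background, and 3 with a variance trend. It was 0 with quantile normalization, no filter, slide as a block or the replicate block, and 0 to 1 with each array left out. Array weights gave 868 such probes and 3 junction probes in place of 0. Those weights were 391 for control 2 against 0.205 to 0.460 for the other arrays, so that fit rests on 1 kidney. Under it CLDN1 had a difference of 0.72 (limma adjusted p = 0.0457) and CLDN12 of -1.54 (limma adjusted p = 0.0340). Weights estimated gene by gene, an alternative chosen after seeing the data, gave 21 probes in all. Junction probes lower at an unadjusted p under 0.05 numbered 3 of 42, with 3.31% of all probes. There were 5 with slide as a block (5.62% of all probes), 9 with array weights (16.5%), 6 with gene-by-gene weights (11.1%), and 2 to 5 with each array left out (1.73% to 8.77%). There were 2 of 42 with median centring (1.97% of all probes) and with quantile normalization (2.81%). In the deposited values there were 2 of 31 (1.23%), and with no filter 2 of 52 (2.94%). The 5 without control 3 (4.15% of all probes) included CLDN19, 1 OCLN probe and 1 CLDN3 probe. Higher ones numbered 1, against 2 of 31 in the deposited values, JUP being the other, where 12.4% of all probes were higher. The median difference of junction probes, -0.14, ranged from -0.21 to 0.01 with each array left out. Over the alternatives run for it, 17 to 19 per gene, 8 of 27 genes kept their sign and 19 took both signs, so the sign of a small difference is not settled. CLDN1 ranged from 0.72 to 1.03, and the CLDN12 probes from -1.62 to -0.85 and from -1.58 to -0.74. The brighter CDH13 probe, for which no deposited value was used, ranged from -0.74 to -0.34. The overlapping one ranged from -0.84 to -0.27, and 10 of 18 alternatives left its unadjusted p at or above 0.05. Same-numbered arrays had deviation correlations of -0.35, -0.17 and -0.05, and arrays of 1 slide had 0.34, 0.10 and 0.33. Deviations were taken from each group's mean, and no slide held same-numbered arrays. These values therefore cannot show whether the numbers in the labels pair the samples. With the replicate block 1 junction probe was higher, against 2.15% of all probes, and 2 were lower, against 2.71%. Signal over background limits CLDN11, CLDN18 and the dimmer CLDN6 probe.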
